A study of Mus musculus with 14 samples.

Results

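The genes described here are 5 genes whose RNA in adult tissue comes mainly from red blood cells and their last precursors: *Hba-a1*, *Hba-a2*, *Hbb-bs*, *Hbb-bt* and *Alas2*. They were chosen by name, out of 54532 gene identifiers in the count tables of 14 mouse heart libraries, and all 5 were matched through GENCODE M21. The libraries are from 4 hearts labelled WT, 4 hearts labelled with the longer name of the YG8 line (called YG8 here, which is not the study's YG8sR), and 3 female and 3 male hearts of the KIKO-700 line. All are labelled C57BL/6 and postnatal day 180, whereas the study's methods give an older age. YG8 mice lack a mouse gene in every cell and carry its human counterpart with a long GAA repeat. WT mice were littermates without these alleles. In KIKO-700 mice 1 copy of the same mouse gene is deleted and the other holds a repeat expansion, and WT hearts of that cohort were not analysed here. Both lines carry their alleles from conception, so that heart muscle and blood cells share them. No agent was given. The methods of the study name cervical dislocation, and the protocol in the labels names removal of the tissue and freezing in liquid nitrogen. Neither mentions perfusion. No blood count stands beside the libraries, so that more blood in a sample and more globin RNA per blood cell cannot be told apart.

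Hemoglobin, the oxygen carrier of red cells, is built of paired α- and β-globin chains, each holding a heme. Mature red cells have no nucleus, but young ones (reticulocytes) still carry globin RNA in great amount, and this RNA enters any tissue RNA in which blood remains. *Alas2* encodes the red cell form of 5-aminolevulinate synthase, the first enzyme of heme synthesis, while *Alas1* encodes the form of other cells. *Hba-a1* and *Hba-a2* are the adult α-globin genes and *Hbb-bs* and *Hbb-bt* the adult β-globin genes of C57BL/6 mice.

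*Hba-a1* (ENSMUSG00000069919) lies on chromosome 11 at 32283511 to 32284465 and *Hba-a2* (ENSMUSG00000069917) on chromosome 11 at 32296489 to 32297298, both on the plus strand of GRCm38. *Hbb-bt* (ENSMUSG00000073940) lies on chromosome 7 at 103812524 to 103813996 and *Hbb-bs* (ENSMUSG00000052305) on chromosome 7 at 103826534 to 103828096, both on the minus strand. *Alas2* (ENSMUSG00000025270) lies on the plus strand of chromosome X at 150547375 to 150570638. All 5 are annotated as protein coding. The 250 bases before the RefSeq start of each gene (GRCm38.p6) are shown beside the levels, which went together between the WT and YG8 libraries. Whether these bases bear on the levels was not tested. Capitals mark 4 motifs, searched on both strands. They are the letters GATA with A or T before them and A or G after them (the GATA motif), the CACCC motif, the CCAAT motif, and ATATAA, a form of the TATA box.
*Hba-a2* (chr11:32296242-32296491, plus strand): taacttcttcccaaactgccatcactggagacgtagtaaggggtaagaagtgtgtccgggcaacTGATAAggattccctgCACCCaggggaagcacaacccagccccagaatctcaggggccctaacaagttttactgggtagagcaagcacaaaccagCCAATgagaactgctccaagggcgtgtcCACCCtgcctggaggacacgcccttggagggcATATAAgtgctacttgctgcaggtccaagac
*Hbb-bs* (chr7:103827929-103828178, minus strand): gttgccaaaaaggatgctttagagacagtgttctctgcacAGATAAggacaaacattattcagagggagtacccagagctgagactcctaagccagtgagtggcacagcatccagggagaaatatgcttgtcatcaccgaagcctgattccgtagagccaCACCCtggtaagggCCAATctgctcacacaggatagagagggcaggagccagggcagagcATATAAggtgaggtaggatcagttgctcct
*Hbb-bt* (chr7:103813924-103814173, minus strand): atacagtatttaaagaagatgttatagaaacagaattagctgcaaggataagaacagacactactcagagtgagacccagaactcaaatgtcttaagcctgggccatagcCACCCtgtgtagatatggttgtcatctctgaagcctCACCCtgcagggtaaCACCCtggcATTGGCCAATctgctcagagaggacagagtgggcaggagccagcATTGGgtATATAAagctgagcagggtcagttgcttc
*Alas2* (chrX:150547167-150547416, plus strand): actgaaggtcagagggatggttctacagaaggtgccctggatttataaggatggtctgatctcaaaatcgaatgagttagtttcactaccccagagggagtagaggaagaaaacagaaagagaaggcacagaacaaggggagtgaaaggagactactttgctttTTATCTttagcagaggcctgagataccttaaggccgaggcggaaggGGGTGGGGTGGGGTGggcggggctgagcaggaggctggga

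The window of *Hba-a1* was the same as that of *Hba-a2* in 247 of 253 aligned columns and held the same motifs. The windows of *Hbb-bs* and *Hbb-bt* matched in 178 of 257 columns. The TATA letters lay 28 to 31 bases before the start of the 4 globin genes and were not in the *Alas2* window. A CACCC motif was in all 5 windows and a GATA motif in all but that of *Hbb-bt*, counting only these letters. *Alas2* held 3 CACCC motifs, read on the other strand and side by side. Among windows of the same length before 27025 mouse genes, 27.1% held the GATA motif, 51.3% CACCC, 34.5% CCAAT and 9.51% ATATAA, so that a match with any of the first 3 is common.

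The paralogs share sequence in their RNA as well, which bears on every value of a single gene below. Of the 86-base windows in the last 300 transcript bases, where this 3′ method reads, 60.0% of those of *Hba-a1* were found unchanged in *Hba-a2*, and 52.6% of those of *Hba-a2* in *Hba-a1*. For *Hbb-bs* and *Hbb-bt* the shares were 26.05% and 25.6%. Reads from such windows cannot be given to 1 gene of the pair, so the split within a pair is uncertain. Ratios from the sums over each pair are therefore given below, beside those of the single genes.

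Total counts ran from 5226233 in WT 3 to 11650840 in YG8 1. Of these counts 28.9% to 44.6% came from mitochondrial DNA genes (44.6% in WT 3) and 19.99% to 31.0% from genes with provisional Gm names. Levels are given in CPM, which is the count of a gene for every 1000000 counts of its library. The method gives about 1 read per RNA molecule whatever its length, so CPM was not divided by gene length. The labels give no sex for the WT and YG8 hearts, and the study states that males were used. *Xist*, an RNA of female cells, stood at 0.272 CPM or less in WT 3, YG8 2 and YG8 4 and at 32.5 to 60.2 CPM in the other 5, so these libraries hold both patterns within each label. Whether each label stands for its genotype was not settled.

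The adult globin genes made up a small and very uneven share of the libraries. Their summed share was 0.677% in WT 1 (95% Wilson interval 0.671% to 0.683%), 0.521% in WT 2, 0.178% in WT 3 and 0.375% in WT 4. In the hearts labelled YG8 it was 0.378%, 0.148%, 0.193% and 0.269% in replicates 1 to 4. In KIKO-700 it was 1.79%, 1.61% and 1.80% for female hearts, and 1.88%, 1.40% and 1.90% for male hearts. Hence the highest library (KIKO-700 male 3, 207100 counts) held 12.9 times the share of the lowest (YG8 2, 10539 counts). The intervals, which cover counting error only, were far narrower than the gap between the highest and the lowest library. Some libraries with near shares had overlapping intervals, such as WT 4 (0.371% to 0.379%) and YG8 1 (0.374% to 0.381%). Within WT the highest library held 3.81 times the share of the lowest, within YG8 2.56 times, and within all 6 KIKO-700 libraries 1.36 times.

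**Figure D1:**
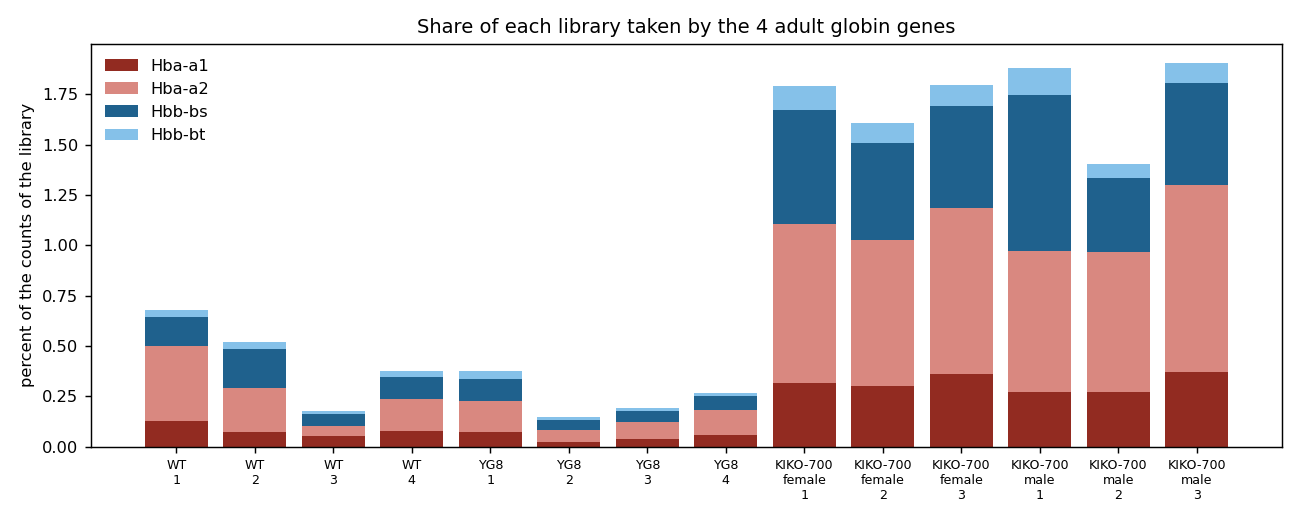
Bars give the percent of all counts of each library that fell on the 4 adult globin genes, stacked by gene, for 14 libraries named by group and replicate. The 6 KIKO-700 bars lie between 1.40% and 1.90% and the 8 WT and YG8 bars between 0.148% and 0.677%.

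*Hba-a2* was the most abundant of the 5 by mean level. WT 1 to 4 held 3739, 2212, 504 and 1611 CPM, and YG8 1 to 4 held 1524, 610.3, 875 and 1255 CPM. Its WT libraries thus spanned the whole range of YG8, with WT 3 below all of them. The mean was 2017 ± 1349 CPM in WT (SD, n = 4) and 1066 ± 404 CPM in YG8 (SD, n = 4). In KIKO-700 *Hba-a2* stood at 7860.25, 7232 and 8229 CPM in females and at 6985, 6965 and 9289.6 CPM in males.

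*Hba-a1*, the other adult α-globin gene, was at 1270.4, 708, 521 and 761 CPM in WT and at 731, 212, 374 and 557 CPM in YG8. Of the YG8 libraries, replicates 1 and 4 fell inside the WT range. In KIKO-700 it was at 3183, 3018 and 3613 CPM in females and at 2732, 2698 and 3719.7 CPM in males. As a share of both α-globin genes, *Hba-a1* took 27.9% to 30.5% in KIKO-700 and 25.8% to 32.4% in YG8. In WT it took 25.4%, 24.3%, 50.8% and 32.1%, so that WT 3 (95% Wilson interval 49.5% to 52.1%) lay far from the other 13 libraries, of which the highest was at 32.4%. The high share and the low *Hba-a2* of WT 3 come from the same counts.

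*Hbb-bs*, the more abundant β-globin gene, was at 1430.4, 1944, 609 and 1086 CPM in WT and at 1128, 504, 541 and 684 CPM in YG8. WT 2 rather than WT 1 was highest here. KIKO-700 females were at 5685, 4823 and 5084 CPM and males at 7760.5, 3693 and 5039 CPM. The 3 males thus spread around the females, with a mean of 5497 ± 2072 CPM against 5197 ± 442 CPM (SD, n = 3 each).

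*Hbb-bt*, the other adult β-globin gene, was at 331, 344, 143 and 293 CPM in WT and at 392.2, 149.5, 144 and 192 CPM in YG8. YG8 1 was above every WT library. KIKO-700 females were at 1183, 977 and 1045 CPM and males at 1324, 689 and 998 CPM. *Hbb-bt* took 15.0% to 21.2% of β-globin counts in WT, 21% to 25.8% in YG8 and 14.6% to 17.2% in KIKO-700. The WT and YG8 ranges of this share met at their ends, and WT 2 alone among these 8 libraries lay within the range of KIKO-700.

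*Alas2* was read at far lower levels than the globins, at 19.5, 14.2, 8.23 and 10.7 CPM in WT and at 13.4, 5.04, 6.85 and 7.99 CPM in YG8. In KIKO-700 it was at 49.6, 41.9 and 48.6 CPM in females and at 46.2, 36.5 and 48.8 CPM in males. For every 1000 adult globin counts there were 2.46 to 2.77 *Alas2* counts in KIKO-700 and 2.97 to 3.55 in YG8. In WT there were 2.88, 2.72, 4.63 and 2.86, and the value of WT 3 had a 95% Wilson interval of 3.43 to 6.24. Over the 14 libraries this ratio ran from 2.46 to 4.63, a span of 1.88 times, while the globin share itself spanned 12.9 times.

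**Figure D2:**
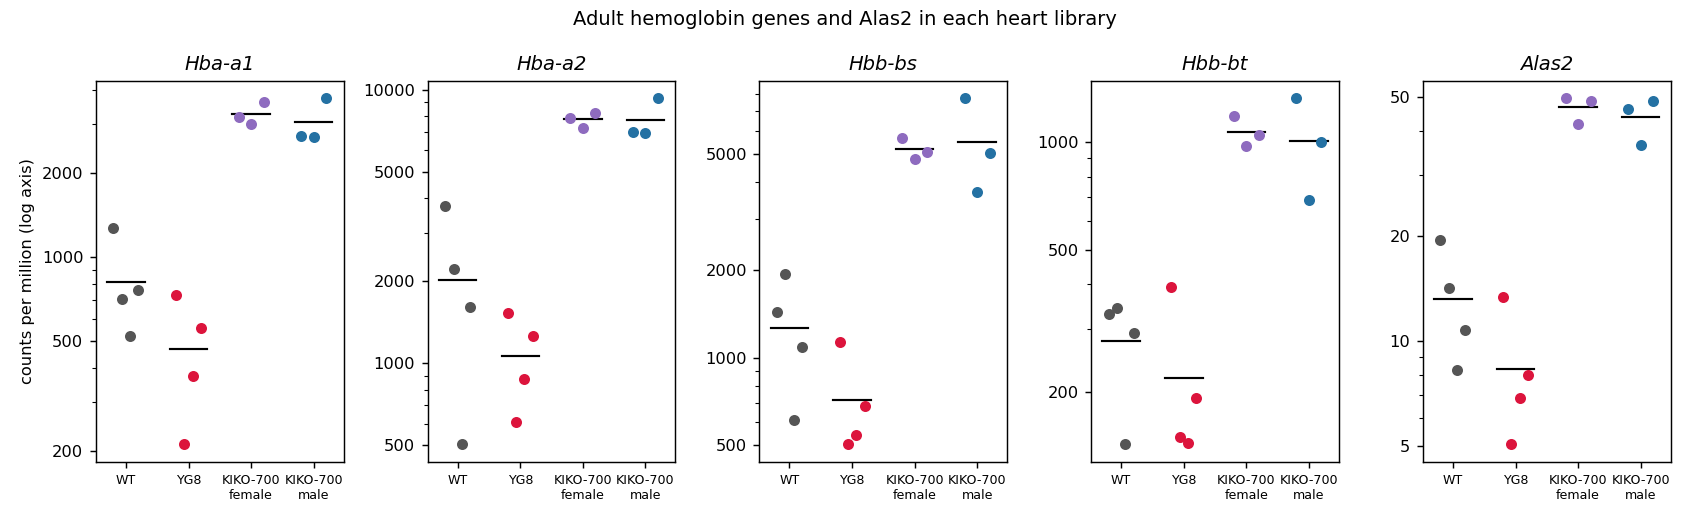
Each point is the CPM of 1 library (log axis, 1 panel per gene) and each line the mean of a group, for 4 WT, 4 YG8, 3 KIKO-700 female and 3 KIKO-700 male libraries. In every panel the WT and YG8 points overlap, and all 6 KIKO-700 points lie above them, *Alas2* at 36.5 to 49.6 CPM against 5.04 to 19.5 CPM.

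The order of the WT and YG8 libraries was much alike for the 5 genes, while in KIKO-700 the α and β genes put the libraries in different orders. WT 3 was the lowest WT library for all 5, YG8 1 the highest YG8 library for all 5, and YG8 2 the lowest YG8 library for all but *Hbb-bt*, where YG8 3 lay slightly under it. The α- and β-globin genes still departed from each other in single hearts. The sum of the α genes was 1.07 times that of the β genes in KIKO-700 male 1 and 2.84 times in WT 1, while the other 12 libraries lay between 1.26 and 2.21 times. KIKO-700 male 1 was the highest library of the series for *Hbb-bs* and had the second lowest *Hba-a1* of its line.

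Hearts labelled YG8 were compared with hearts labelled WT to see whether the blood RNA differed between them. The mean CPM in YG8 was 0.575 times that in WT for *Hba-a1*, 0.529 times for *Hba-a2*, 0.564 times for *Hbb-bs*, 0.791 times for *Hbb-bt* and 0.632 times for *Alas2*. None of the 5 differences passed the test. With edgeR's quasi-likelihood test over 11875 genes the log2 fold change was −0.51 ± 0.40 for *Hba-a1* (SE, adjusted p = 0.884), −0.57 ± 0.47 for *Hba-a2* (adjusted p = 0.886) and −0.54 ± 0.36 for *Hbb-bs* (adjusted p = 0.867). It was −0.08 ± 0.37 for *Hbb-bt* (adjusted p = 0.986) and −0.37 ± 0.34 for *Alas2* (adjusted p = 0.904). The 95% intervals ran from −1.37 to 0.35 for *Hba-a1* and from −1.10 to 0.36 for *Alas2*. With paralogs summed, the log2 ratio of mean CPM was −0.88 for the α pair and −0.73 for the β pair, with no test made.

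All 5 fold changes were below 0, against 50.5% of all genes tested, and the 5 are not independent of each other. Their median was −0.51, against −0.01 for all genes. At an unadjusted p under 0.05, 0 of the 5 were called against 6.05% of all genes (361 higher and 357 lower), and at the adjusted threshold 0 of 11875 genes were called by edgeR and 7 by DESeq2. When libraries were scaled by their totals alone, the median over all genes became −0.21, with 171 genes higher and 674 lower unadjusted. There *Hba-a1* was at −0.80 (unadjusted p = 0.0379) and *Hbb-bs* at −0.83 (unadjusted p = 0.0279), with an adjusted p of 0.701 for both in edgeR. None of the 5 genes had groups that did not overlap in CPM, while 3.18% of all genes had every YG8 library below every WT library.

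An exact two-sided permutation test of mean log2 CPM, whose smallest possible p is 0.0286, gave p = 0.171 for *Hba-a1*, 0.343 for *Hba-a2*, 0.143 for *Hbb-bs*, 0.486 for *Hbb-bt* and 0.143 for *Alas2*. Single libraries moved these values. Without WT 1 the edgeR log2 fold change of *Hba-a2* was −0.23. Without WT 3, the shallowest library, the edgeR log2 fold change of *Hba-a2* was −0.88 (unadjusted p = 0.0403, adjusted p = 0.844) and that of *Hbb-bt* −0.27. Without YG8 1 *Hbb-bs* was at −0.88 (unadjusted p = 0.0335) and *Alas2* at −0.73 (unadjusted p = 0.0473), with an adjusted p of 0.992 for both in edgeR. Without YG8 2 *Hbb-bt* was at 0.13. With the *Xist* level as a covariate *Hba-a2* was at −0.10 and *Hbb-bt* at 0.13. Among libraries with *Xist* above 10 CPM alone, a setting chosen after seeing the data, *Hba-a2* was at −0.67 and *Hbb-bt* at 0.09.

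**Figure D3:**
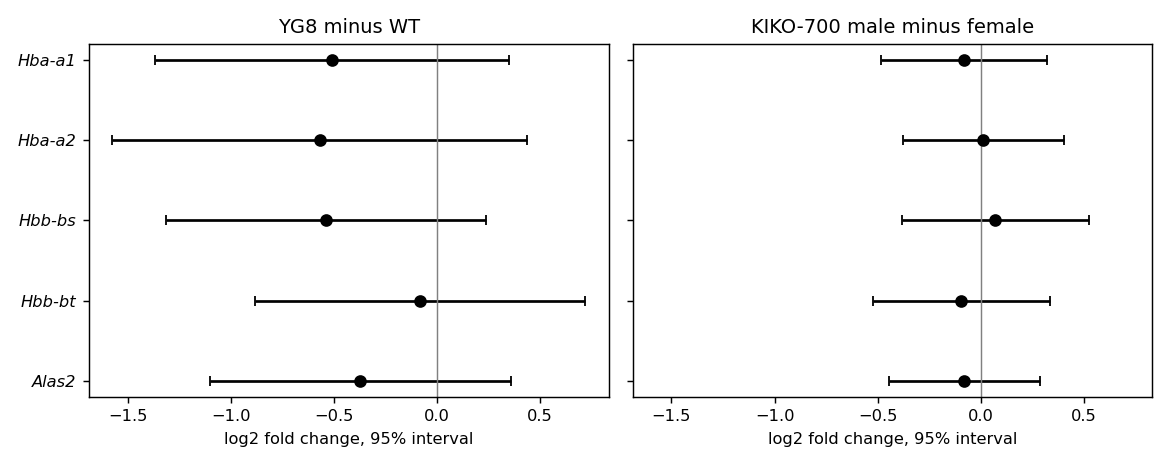
Points give the log2 fold change of each gene in edgeR and bars its 95% interval, for YG8 minus WT (4 libraries each, left) and for KIKO-700 males minus females (3 libraries each, right). Every interval includes 0, and the bars on the right are shorter than those on the left.

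KIKO-700 males and females differed by less than the spread between replicates in all 5 genes. The log2 fold change, males minus females, was −0.08 for *Hba-a1* (95% interval −0.49 to 0.32), 0.01 for *Hba-a2* (−0.38 to 0.40) and 0.07 for *Hbb-bs* (−0.38 to 0.52). It was −0.10 for *Hbb-bt* (−0.52 to 0.33) and −0.08 for *Alas2* (−0.45 to 0.29). With paralogs summed, the log2 ratio of mean CPM was −0.03 for the α pair and 0.05 for the β pair, with no test made. The edgeR adjusted p ran from 0.963 for *Hbb-bt* to 0.993 for *Hba-a2*, and 0 of the 5 were called, against 8 of 11801 genes (0.0678%). Unadjusted, 7.15% of all genes were called and again none of the 5. In exact permutation tests, which cannot go below p = 0.1 here, p lay between 0.6 (*Hba-a1* and *Alas2*) and 1.0 (*Hba-a2* and *Hbb-bs*). A difference between the sexes smaller than these intervals was not detectable with 3 hearts of each. Leaving out a single library turned the sign of each gene. Without male 2 *Hba-a1* was at 0.0090, *Hbb-bt* at 0.12 and *Alas2* at 0.042, without male 1 *Hbb-bs* was at −0.18, and without male 3 *Hba-a2* was at −0.20.

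Levels in the 2 sets of hearts, KIKO-700 on one side and WT with YG8 on the other, were far apart. The mean of the 6 KIKO-700 libraries was 4.92 times that of the other 8 for *Hba-a1*, 5.03 times for *Hba-a2*, 5.40 times for *Hbb-bs*, 4.17 times for *Hbb-bt* and 4.22 times for *Alas2*. All 6 KIKO-700 libraries were above all 8 others for all 5 genes, which was so for 7.39% of the 12503 genes with a mean of at least 1 CPM. The median ratio over those genes was 1.05, and by their ratio the 5 genes held places 17 to 48. Line, cohort and handling of the hearts cannot be told apart between these sets, and no test was made. With totals scaled by TMM factors the log2 ratio ran from 1.93 (*Hbb-bt*) to 2.33 (*Hbb-bs*), and with mitochondrial DNA and Gm genes left out of the total from 1.78 (*Hbb-bt*) to 2.17 (*Hbb-bs*). With paralogs summed the log2 ratio was 2.32 for the α pair and 2.36 for the β pair.

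**Figure D4:**
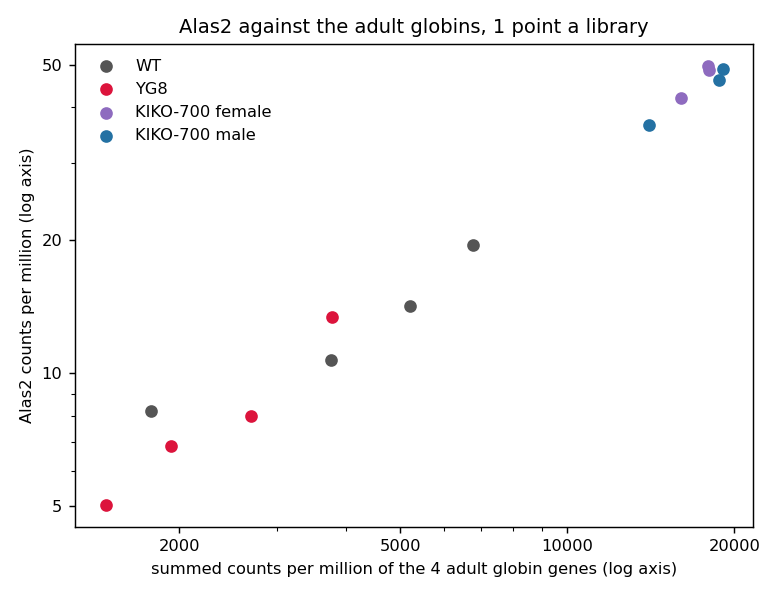
Each point is 1 library, with the summed CPM of the 4 adult globin genes on the x axis and *Alas2* CPM on the y axis (both log axes), coloured by group. The points run from YG8 2 (1476 and 5.04 CPM) to the KIKO-700 libraries (14045 to 19046 and 36.5 to 49.6 CPM), with a gap between the 2 sets.

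Whether single genes moved together was measured within each set of hearts. Over the 8 WT and YG8 libraries Pearson's r of log2 CPM was 0.776 or more for all 10 pairs. It was highest for *Hba-a1* with *Alas2* (r = 0.948, exact permutation p = 0.000694, adjusted over 20 pairs 0.0139; Spearman's rho = 0.881, exact p = 0.00724, adjusted 0.029). For *Hbb-bs* with *Alas2* r was 0.907 (exact permutation p = 0.00335, adjusted 0.0185) and rho 0.952 (exact p = 0.00114, adjusted 0.0185). *Hba-a2* and *Hbb-bs*, which lie on different chromosomes, gave r = 0.865 (exact permutation p = 0.0059, adjusted 0.0185) and rho = 0.881 (exact p = 0.00724, adjusted 0.029). All 10 pairs passed the adjusted threshold by r and 8 by rho. Without the 2 libraries farthest from the median r was 0.683 to 0.956, and as deviations from the group means it was 0.690 to 0.942. Depth, the mitochondrial share and *Xist* also differed between these libraries, and their part was not tested.

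Over the 6 KIKO-700 libraries, which differed less from each other, only the pairs of paralogs passed. *Hba-a1* with *Hba-a2* gave r = 0.948 (exact permutation p = 0.00139, adjusted 0.0139) and rho = 1.0 (exact p = 0.00278, adjusted 0.0185). *Hbb-bs* with *Hbb-bt* gave r = 0.951 (exact permutation p = 0.00833, adjusted 0.0185) and rho = 1.0 (exact p = 0.00278, adjusted 0.0185). Without the 2 farthest libraries these were 0.931 and 0.982, and the part of reads shared by paralogs was not tested. Between α and β genes r was −0.05 to 0.18, with an adjusted p of 0.884 to 0.947 in exact permutation tests, and between *Alas2* and the globins 0.634 to 0.801, with an adjusted p of 0.107 to 0.255. Leaving out 1 library at a time moved r of *Hba-a1* with *Hbb-bs* from −0.71 to 0.68. That the pairs differ between the 2 sets of hearts was not tested.

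The genes most like *Hba-a2* were sought among 12502 others with a mean of at least 1 CPM, by r of log2 CPM as deviations from the 4 group means over 14 libraries. *Alas2* held place 44 (r = 0.867), *Hba-a1* place 148, *Hbb-bt* place 399 and *Hbb-bs* place 409, beside a median r of 0.167 over the genes compared. The 10 genes in front that are no globin were *Edc4* (r = 0.967), *Mettl4*, *Arih2*, *Hmgb1-ps4*, *Egln3*, *H2afy*, *G6pdx*, *Ppp6r3*, *Ccdc159* and *Map2k3* (r = 0.909). In the KIKO-700 libraries alone, their r with *Hba-a2* was −0.60 to 0.27. Over the 8 WT and YG8 libraries it was 0.538 to 0.974, and WT 3 stood lowest of these in *Hba-a2*. Some of the 10 genes were near the floor. *Mettl4*, *Hmgb1-ps4* and *Ccdc159* were at 0 CPM in their lowest library and *G6pdx* at 0.383 CPM.

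Other red cell genes were taken from a list of 36, of which 35 were matched. Its genes were read at very different levels. Among those at the low end were genes of the red cell membrane and of its nucleated precursors. *Slc4a1*, which encodes the anion exchanger band 3, was at 1.75 CPM or less in every library. *Klf1*, a regulator of globin genes, had 3 counts over the 14 libraries, *Epb42* 4 counts, *Gata1* 9 counts and *Rhag* 0 counts. The embryonic globins *Hba-x*, *Hbb-bh1*, *Hbb-bh2* and *Hbb-bh0* had 0 counts and *Hbb-y* had 1 count. A count of 0 allows up to 0.257 to 0.574 CPM in these libraries, taking 3 counts as the limit. Some other membrane and membrane skeleton genes of the list were read at means of 7.48 to 198 CPM, with ratios of KIKO-700 to the other hearts of 1.004 to 1.502. Of the red cell list 21 genes had a mean of at least 1 CPM, and their median ratio of KIKO-700 to the other hearts was 1.46.

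In 3 of those 21 genes all KIKO-700 libraries were above all others, beside 7.39% of all genes, and they were named after their values were seen. *Slc25a37*, which encodes mitoferrin, the carrier that brings iron into mitochondria, was at 18.5 to 28.4 CPM against 5.88 to 16.8 CPM. *Isg20* was at 14.3 to 20.8 CPM against 2.52 to 10.4 CPM. *Slc6a9*, which encodes a glycine transporter, was at 1.60 to 2.39 CPM against 0.191 to 1.5 CPM. *Tfrc*, the transferrin receptor gene, had a mean in KIKO-700 of 0.536 times that in the other hearts. Its values overlapped, at 5.79 to 18.1 CPM in KIKO-700 and 8.35 to 40.9 CPM in the other hearts. In the YG8 comparison 19 genes of the list were tested, 0 were called by edgeR with adjustment, and the median log2 fold change was −0.17. In KIKO-700 0 of 21 were called either way.

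No other gene of heme synthesis than *Alas2* had all KIKO-700 libraries above all others. *Alas1*, the form of the first enzyme used outside red cells, was at 5.66 to 17.8 CPM in KIKO-700 and at 21.04 to 53.2 CPM in the other hearts, so that every KIKO-700 library was below every other, as for 2.20% of genes. Its mean ratio was 0.296, while that of *Alas2* was 4.22. *Fech*, which encodes ferrochelatase, the last enzyme, was at 40.6 to 92.7 CPM against 23.0 to 45.5 CPM and overlapped. Of the 9 genes of the pathway 0 were called with adjustment in either comparison. Unadjusted, 1 was higher in KIKO-700 males than in females, beside 7.15% of all genes called there. It was *Alas1* (log2 fold change 0.98, adjusted p = 0.660 in edgeR). In the YG8 comparison 0 were called, beside 6.05% of all genes.

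Genes for the disposal of hemoglobin and heme had ratios of KIKO-700 to the other hearts both above and below the median of all genes. Of 7 such genes with a mean of 1 CPM none separated the sets. Beside this, 7.39% of all genes were above and 2.20% below in all KIKO-700 libraries, so that none of 7 says little. The median ratio was 1.07, beside 1.05 for all genes, and the ratios ran from 0.81 (*Lrp1*) to 1.77 (*Hp*). *Hmox1*, which encodes heme oxygenase 1, was at 1.43 to 4.66 CPM in KIKO-700 and at 0.601 to 3.25 CPM in the others. *Cd163*, the scavenger receptor by which macrophages take up hemoglobin bound to haptoglobin, was called without adjustment in both comparisons. Its log2 fold change was −1.05 in YG8 (unadjusted p = 0.0162, adjusted p = 0.786 in edgeR) and 0.46 in KIKO-700 males (unadjusted p = 0.0399, adjusted p = 0.672). Beside it, 6.05% and 7.15% of all genes were called without adjustment in these comparisons.

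Markers of other blood cells were set beside the globin values, since blood holds them too. The 15 platelet markers summed to 68.0 to 122 CPM in the WT and YG8 libraries and to 82.6 to 154 CPM in KIKO-700. Of these, 7 had a mean of at least 1 CPM, with a median ratio of 1.90, and 2 of the 7 (*Itga2b* with a ratio of 3.27 and *Gp1bb* with 3.11) were above in all KIKO-700 libraries, beside 7.39% of all genes. *Pf4*, the platelet marker with the highest level, was at 51.7 to 103 CPM in the WT and YG8 libraries and at 43.6 to 93.9 CPM in KIKO-700, a mean ratio of 0.986. Its means of 69.4 and 68.4 CPM made up most of the mean platelet sums of 86.6 and 111.2 CPM. *Ppbp*, another platelet marker, was far lower, at 1.5 to 3.25 CPM and at 1.87 to 4.445 CPM, a mean ratio of 1.3. Whether the *Pf4* counts came from platelets was not tested. The 15 neutrophil markers summed to 14.8 to 69.3 CPM and 8.63 to 49.4 CPM. The 6 of them with a mean of at least 1 CPM had a median ratio of 0.588. *S100a8*, a neutrophil gene, was highest of the WT libraries in WT 3 (20.1 CPM), where the globins were lowest, and highest of KIKO-700 in male 1 (28.3 CPM). In KIKO-700 2 genes of this list were tested, and both were higher in males without adjustment, beside 7.15% of all genes. The log2 fold change was 2.39 for *S100a8* (unadjusted p = 0.00119 in edgeR) and 1.93 for *S100a9* (unadjusted p = 0.00116), with an adjusted p of 0.360 for both. In the YG8 comparison 0 of 4 were called, beside 6.05% of all genes. The 16 lymphocyte markers summed to 4.63 to 191 CPM and 11.7 to 22.7 CPM, with the highest value in WT 2, where *Ighm* stood at 169 CPM.

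Among cells of the heart itself, 6 of 13 endothelial markers were above in all KIKO-700 libraries, beside 7.39% of all genes, with a median ratio of 1.84 beside 1.05 for all genes. The largest ratio was that of *Aqp1* (3.87), a water channel gene that red cells express as well. The 13 cardiomyocyte markers had a median ratio of 1.26, with none above in all KIKO-700 libraries and *Pln* below in all. *Mb*, which encodes myoglobin, the oxygen-binding globin of muscle, was at 3451 to 6825 CPM against 6133 to 8546 CPM in KIKO-700, a ratio of 1.46. The part of these cell types in the globin difference was not tested.

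**Figure D5:**
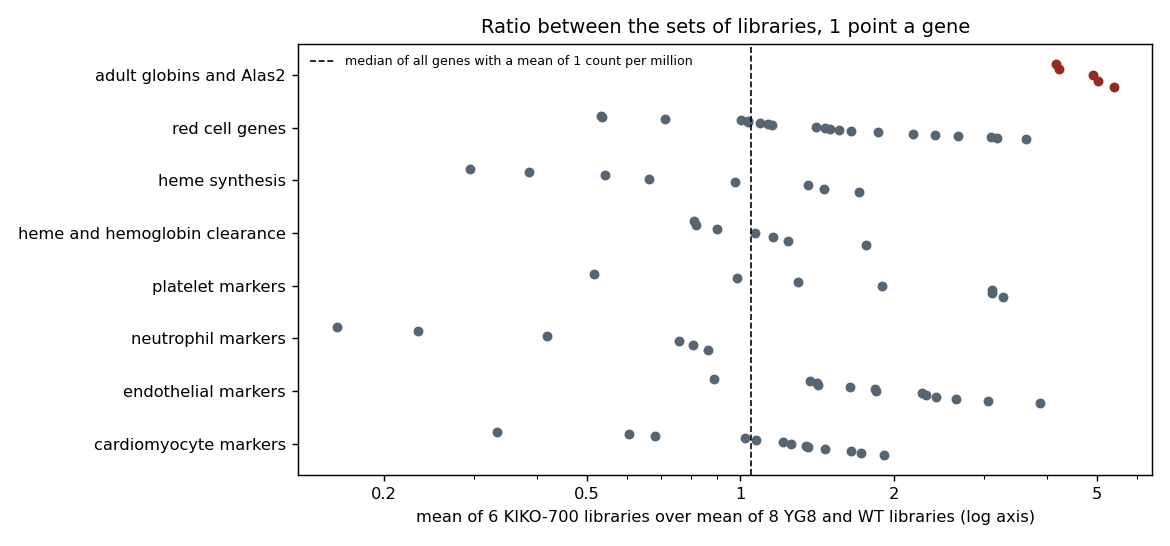
Each point is a gene with a mean of at least 1 CPM, placed by the mean of 6 KIKO-700 libraries over the mean of 8 WT and YG8 libraries (log axis) and grouped by list, with *Alas2* drawn in the first row only. The 5 genes of the first row lie at 4.17 to 5.40, to the right of every point in the other rows, and the dashed line marks the median of all such genes, 1.05.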

How the data were processed

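RNA of 14 hearts was read with Lexogen QuantSeq 3′ libraries. Per the labels the values are whole counts for each Ensembl gene, which the authors deposited without normalization. Alignment and counting were by Rsubread and featureCounts according to the methods of the study, but by STAR 2.5.0a and HTSeq 0.6.1 according to the submitters' processing notes, and which was used is not known. Of 54532 identifiers 123 had no symbol. Groups came from the labels. The 5 genes, the lists and the tests were chosen with earlier results of these data known. The gene targeted in the mice and some red cell genes are not reported here.

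In R 4.3.3 each comparison was fitted with edgeR 4.0.16 (filterByExpr, TMM, robust quasi-likelihood test, Benjamini-Hochberg adjustment, threshold 0.05). Log2 CPM used a prior count of 2. The alternatives were other scalings and filters, DESeq2 1.42.0, limma 3.58.1, a replicate block, all libraries in 1 fit, other totals, summed paralogs, an *Xist* covariate and each library left out. Libraries with *Xist* above 10 CPM alone, and WT 2 and WT 3 left out together, were added after seeing the data. Genes to be named from lists were those of a cell type's defining level and up to 4 per list with the smallest p. Not all of these are named. Others, such as *Slc25a37*, *Isg20*, *Itga2b*, *Gp1bb* and *Aqp1*, were named after their ratio or separation between the sets was seen. Nothing says that replicates were separate litters, so p-values measure the spread between these hearts. Tested on simulated data, the fit called 12 of 96 genes changed by a log2 of 1 in YG8 against WT and 64 of 98 in KIKO-700. Replicate numbers did not pair libraries.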

Additional observations from a re-analysis of the deposited data

Results flagged for a closer look

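Dixon's test at the 95% level was applied to the 4 WT and the 4 YG8 libraries, over 38 groups of values, of which chance flags about 1 in 20. *Alas2* counts per 1000 adult globin counts stood apart in WT 3, at 4.63 against 2.72 to 2.88 in the other WT libraries.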

How the results depend on the processing

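None of the 5 genes passed the adjusted threshold under any alternative run. In YG8 against WT, *Hba-a1*, *Hba-a2*, *Hbb-bs* and *Alas2* stayed below 0 in all 23 alternatives, with the lowest adjusted p at 0.51 (*Hbb-bs*) in edgeR. The range of *Hba-a2* was −1.0 to −0.10. The value of −1.0 came without WT 2 and WT 3 together, a setting chosen after seeing the data. *Hbb-bt* turned to 0.13 with the *Xist* covariate and to 0.090 with libraries of *Xist* above 10 CPM alone, and ran from −0.56 to 0.13 as libraries were left out. In KIKO-700, *Hba-a2* turned to −0.0043 with upper-quartile factors, −0.0051 with library size alone, −0.011 with limma-voom, −0.011 with limma-trend and −0.011 with the replicate block. As libraries were left out in KIKO-700, the log2 fold change ran from −0.31 to 0.040 for *Hba-a1*, −0.20 to 0.13 for *Hba-a2*, −0.18 to 0.29 for *Hbb-bs*, −0.27 to 0.12 for *Hbb-bt* and −0.22 to 0.042 for *Alas2*.

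The number of genes called in YG8 against WT, 0, became 107 with no filter, 7 with DESeq2 and 1 with all 14 libraries in 1 fit, and 0 to 145 as libraries were left out (145 without WT 4). In KIKO-700 the 8 became 105 with no filter, 2 with at least 10 counts in every library, 18 with DESeq2 and 0 with all 14 libraries in 1 fit, and 4 to 864 as libraries were left out (864 without male 1, and 4 or 5 without any 1 female or male 2). The causes were not tested. Libraries of the same replicate number did not deviate together (r of −0.23, 0.25, −0.03 and 0.13 in WT and YG8, and −0.17, −0.04 and −0.19 in KIKO-700). With the replicate block 0 genes were called in YG8 against WT, and 6 in KIKO-700 in place of 8. *Hba-a1* was at −0.67 in YG8 with the block (unadjusted p = 0.0521 in edgeR), against −0.51. In the 8 WT and YG8 libraries, r of *Hba-a1* with *Hba-a2* ran from 0.722 (without WT 1) to 0.959. *Alas2* had 36 counts in YG8 2 and 43 in WT 3, so that counting error is largest in its ratios there.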
